A study of Homo sapiens with 8 samples.

Results

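This report describes 39 genes of glycolysis, lactate handling and the hypoxia response in PANC-1 cells treated with eupalinolide B (EB), chosen by name from the 20263 genes of the deposited table. All 39 were found in the table by their human Ensembl identifiers. They comprise 27 genes of glucose uptake, glycolysis and the fate of pyruvate and lactate, and 12 genes that regulate or respond to the hypoxia pathway. PANC-1 cells are an established human line derived from a ductal carcinoma of the pancreas. EB is a sesquiterpene lactone from the plant Eupatorium lindleyanum. Cells received 10 μM EB or the vehicle dimethyl sulfoxide (DMSO) for 24 h, and 4 mRNA libraries were sequenced per group. The methods name 4 biological replicates per group but also sequencing in triplicate and, for the RNA-seq figure, 3 replicates, and all 8 libraries in the table were used here. The columns of the table carry the letters C and H with a number, of which C was read as DMSO and H as EB, the only other group. All libraries come from 1 cell line, at 1 dose and 1 time, and the oxygen level of the cultures is not given in the sources used here.

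Glycolysis splits glucose into pyruvate in the cytosol. Hexokinase traps glucose in the cell, phosphofructokinase is the main control point, and the steps from aldolase to pyruvate kinase recover ATP and NADH. Pyruvate is then reduced to lactate and exported, or enters mitochondria, where pyruvate dehydrogenase kinases (PDK) hold back its oxidation. Hypoxia-inducible factors, which pair HIF1A or EPAS1 with ARNT, turn on many of these genes. Their alpha subunits are controlled mainly as proteins, by oxygen-dependent hydroxylation through the EGLN enzymes and degradation through VHL, so an mRNA level of HIF1A does not measure the activity of the factor. Pancreatic ductal carcinoma is known for poor oxygen supply and a high glycolytic rate.

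Expression was given as TPM, the usual relative transcript abundance corrected for transcript length, so levels can be compared between genes. Read depth and counting error are unknown, since TPM keep no totals. Mitochondrially encoded genes took 17.01% to 21.1% of the TPM in DMSO replicates 1 to 3, 39% in DMSO replicate 4 and 11.6% to 20.3% with EB. DMSO replicate 4 was the lowest DMSO library for 32 of the 36 members tested (88.9%) and for 77.0% of all genes tested. After the TPM were rescaled without mitochondrial genes, this held for 26 of 36 members (72.2%) and for 41.7% of all genes. Values without this library are therefore given beside the results. Fold changes also depended on transcript length across all genes, with a median log2 fold change of 0.41 among the shortest 10% of transcripts (up to 1225 nucleotides) and −0.54 among the longest 10% (from 7315 nucleotides). Values after removal of the trends on length and GC content, called detrended below, are shown and given in the same way. Of the ductal and epithelial markers, KRT8, KRT18, KRT19 and MUC1 were present while KRT7, EPCAM and CDH1 stayed below 1 TPM. Of the 4 mesenchymal markers, VIM ran from 5882 to 7771 TPM and ZEB1 from 6.33 to 15.6, while CDH2 and FN1 stayed below 1 TPM. The summed TPM of the 7 ductal and epithelial markers was 1007 to 1475 with DMSO and 3214 to 3595 with EB. All 4 immune and all 4 acinar markers were listed at 0, as were DCN and LUM of the 5 fibroblast markers. Of the other fibroblast markers, COL1A2 ran from 37.7 to 90.05 TPM and COL1A1 from 0.806 to 2.17, and PDGFRB stayed below 1 TPM. In a bulk library fewer cells of a kind and less RNA per cell cannot be told apart. The part of the mitochondrial share and of these markers in the results below was not tested.

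Hypoxia-inducible factors bind short cores such as ACGTG, the only form searched here, in the promoters of their targets. The 250 bases before each annotated start (RefSeq, GRCh38.p14) could be read for 33 of the 39 members. The core, on either strand, was found in 20 of these 33 genes (60.6%) and in 29.2% of all tested genes with such a sequence. Counted by start site, since some genes have several, it was found before 37.1% of the members' starts and 18.5% of all starts. The stretches below show the match nearest to a start in the 6 members with an adjusted p under 0.05 that hold one, and in LDHA, PGK1 and EGLN1 for comparison. Capitals mark ACGTG or its reverse complement CACGT. Where both overlap as CACGTG, the letters are also an E-box, which other factors bind.
ALDOA (chr16:30064374-30064402, plus strand): ggcagggaggcCACGTGatccgagtcccc
ANKRD37 (chr4:185396686-185396714, plus strand): cagtgtttgtgtACGTGcggccgtggcgg
SLC16A3 (chr17:82228975-82229003, plus strand): cgtgcgcgggggACGTGccgcgccagcga
PDK1 (chr2:172556061-172556089, plus strand): cctgctgcccgcCACGTccctCACGTacc
PDK2 (chr17:50095211-50095239, plus strand): ccgggggaagcCACGTGccggggcggaag
PFKFB3 (chr10:6202813-6202841, plus strand): accctcctcccCACGTGgaagggggctgg
LDHA (chr11:18394478-18394506, plus strand): cgtgggttcccgCACGTccgccggccccc
PGK1 (chrX:78104053-78104081, plus strand): aaacggaagccgCACGTctcactagtacc
EGLN1 (chr1:231422288-231422316, minus strand): cgcggggccgtggtgtACGTGcagagcgc
As described below, genes with the core rose (ALDOA, ANKRD37, SLC16A3), fell (PDK1, PDK2, PFKFB3) or did not pass the test (LDHA, PGK1, EGLN1). A match is a description of the letters and not evidence of binding.

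In these cells a few of the glycolysis transcripts were very abundant. GAPDH stood at 7771 ± 982 TPM (SD, n = 4) with DMSO, followed by ENO1 at 2447 ± 508 and TPI1 at 2235 ± 444. DMSO replicate 4 was the lowest DMSO library for both, and ENO1 lay above TPI1 within each of the 8 libraries. PKM at 1077 ± 177 and ALDOA at 918.6 ± 142.5 came next. PKM lay above ALDOA within each DMSO library but not within each EB library. Together the 39 members took 1.74% ± 0.276 of all TPM with DMSO and 1.99% ± 0.081 with EB (SD, n = 4). Of the TPM of nuclear genes alone they took 2.30% ± 0.098 and 2.33% ± 0.0508. At the other end, CA9, a carbonic anhydrase and classical hypoxia target, was listed at 0 in all 8 libraries. SLC2A3, a high-affinity glucose transporter, was at most 0.18 TPM, and EGLN3, a HIF hydroxylase, ran from 0.0702 to 0.419 TPM with DMSO and from 0.247 to 0.906 with EB. These 3 genes were below the minimum of 1 TPM in 4 libraries, were not tested and get no fold change.

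**Figure D1:**
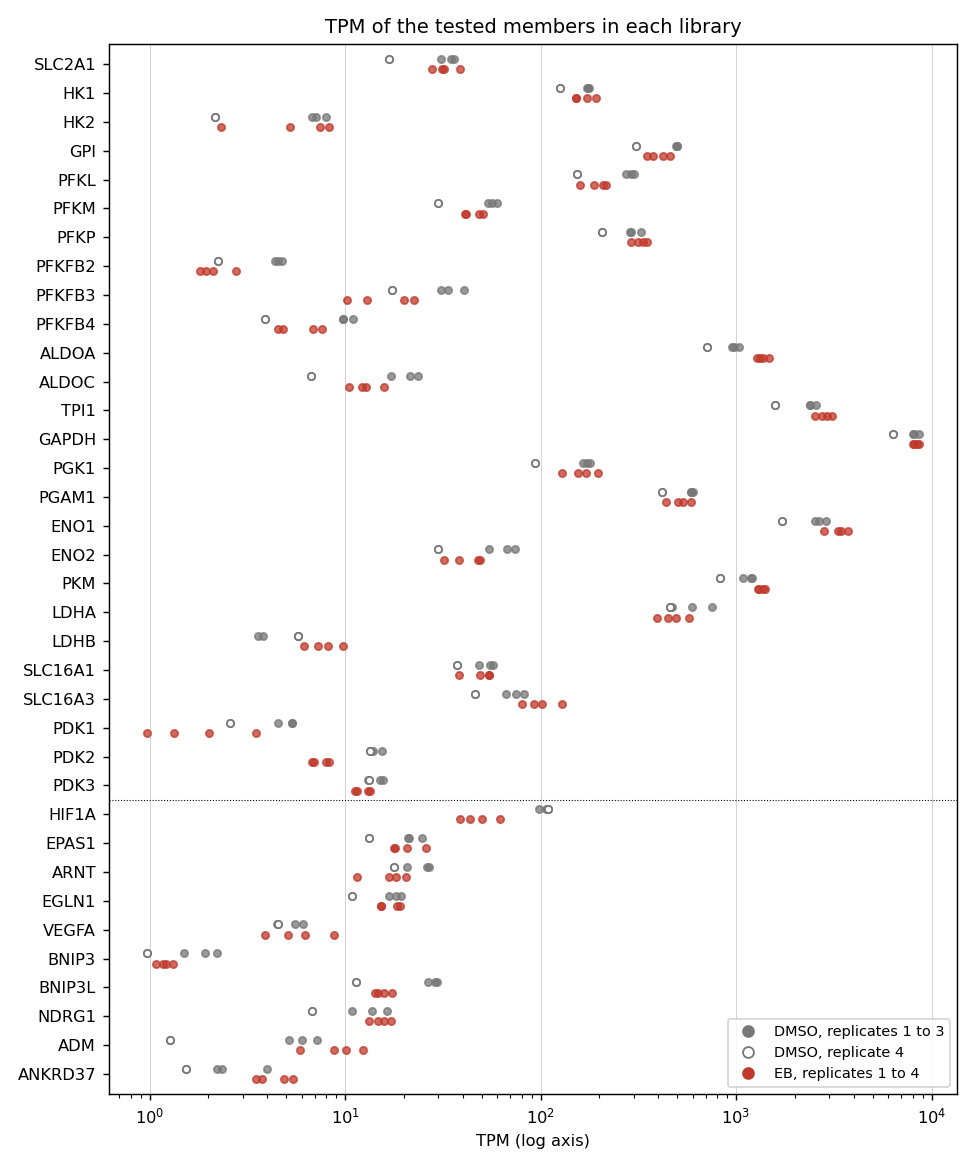
TPM of the 36 tested members (log axis) in each of the 4 DMSO (grey) and 4 EB (red) libraries, in pathway order, with DMSO replicate 4 as open circles and a dotted line between glycolysis with lactate (above) and hypoxia (below). Levels run from about 1 TPM (BNIP3) to 8617 TPM (GAPDH), the open circles lie left of the other DMSO points in most genes, and HIF1A and PDK2 separate the groups with all EB points to the left.

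With limma on log2(TPM + 1) and Benjamini-Hochberg adjustment over the 11725 genes tested, 9 of the 36 members tested had an adjusted p under 0.05. ALDOA, LDHB, SLC16A3 and ANKRD37 were higher with EB, and PFKFB2, PFKFB3, PDK1, PDK2 and HIF1A were lower. This is 25% of the members tested, where 40.3% of all genes tested were called, 15.2% higher and 25.1% lower. By list, 7 of 26 glycolysis and lactate members and 2 of 10 hypoxia members were called. At an unadjusted p under 0.05 by limma, 7 members were higher and 5 lower, 12 in all, where 19.4% and 30.5% of all genes passed, 50% in all. Of the members 0 also had an absolute log2 fold change above 1.5, the study's thresholds, which 2.08% of all genes passed, 0.537% higher and 1.54% lower. The median log2 fold change was −0.06 over the glycolysis and lactate members and 0.07 over the hypoxia members, against −0.11 over all genes tested. The EB and DMSO libraries did not overlap in ALDOA, PKM and LDHB (EB above) and in PDK2 and HIF1A (EB below), 5 of 36 members, where 16.6% and 20.3% of all genes, 36.8% in all, did not overlap. Without DMSO replicate 4, EB lay above in the same 3 members and below in 14, where the shares of all genes were 17.2% and 39.5%, 56.7% in all. The members tested passed a filter on low values, so these counts do not speak for SLC2A3, EGLN3 and CA9. Without DMSO replicate 4, 2 members were higher and 14 lower, where 15.6% of all genes were higher and 37.0% lower, 52.5% in all. Other scalings shifted the balance as well: the median of all genes was −0.01 under median-ratio scaling, 0.02 under quantile normalization and −0.28 without the mitochondrial genes. Under median-ratio scaling 10 members were higher and 5 lower, where 25.9% and 26.3% of all genes were called, 52.2% in all. Under quantile normalization 6 were higher and 8 lower, where 23.8% and 23.5% of all genes were called, 47.3% in all. Without the mitochondrial genes 4 were higher and 14 lower, where 12.3% and 41.3% of all genes were called, 53.6% in all. After detrending, 0 were higher and 3 lower (PDK2, PDK3 and HIF1A), where 10.5% and 20.1% of all genes were called by limma, 30.6% in all. At an unadjusted p under 0.05 in that fit, 1 member was higher (SLC16A3, adjusted p = 0.0535) and 5 were lower, where 15.2% and 27% of all genes passed, 42.2% in all. Of the 9 calls, those of HIF1A and PDK2 held under each of the 17 alternatives run, and that of ALDOA under all but detrending.

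**Figure D2:**
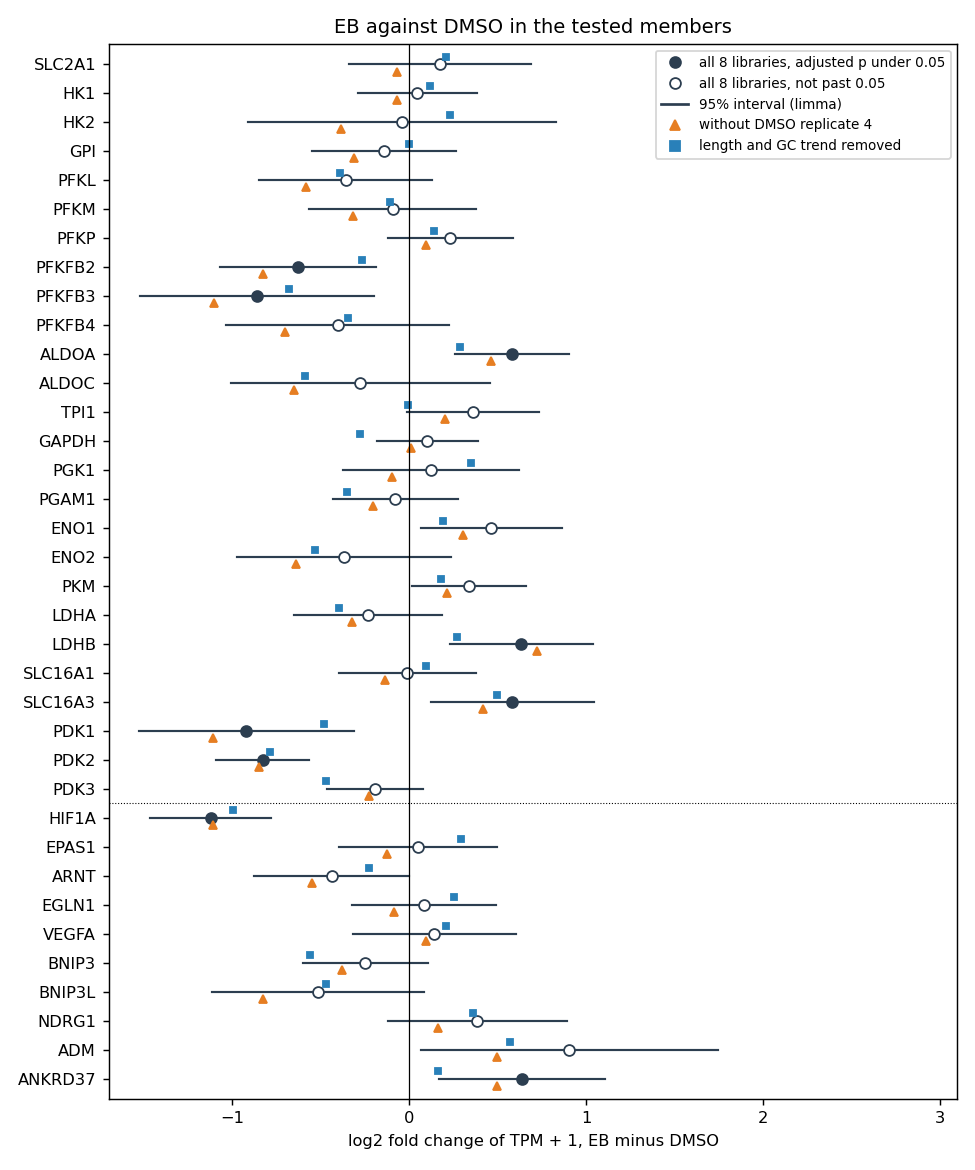
Log2 fold change of TPM + 1 (EB minus DMSO) of the 36 tested members in pathway order, with limma's 95% interval. Filled circles mark an adjusted p under 0.05, triangles the value without DMSO replicate 4 and squares the detrended value. For HIF1A and PDK2 the 3 symbols lie close together, while for most other members the triangle lies left of the circle.

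At the entry of the pathway no tested gene passed the test. SLC2A1, the main glucose transporter of proliferating cells, had 36.1, 31.1, 34.95 and 16.9 TPM in the 4 DMSO libraries and 38.7, 32.1, 27.97 and 31.5 with EB. The groups overlapped, and the log2 fold change of 0.17 (95% interval −0.34 to 0.69) had a limma adjusted p of 0.572. HK1, the hexokinase of most tissues, was the main form, with 162.8 ± 24.6 TPM (SD, n = 4) with DMSO and 167.3 ± 19.5 with EB. HK2, the hexokinase often raised in tumours, stood at 6.01 ± 2.62 and 5.80 ± 2.65. HK1 made up 95.5% to 98.5% of the TPM of both hexokinases over the 8 libraries. GPI, which turns glucose 6-phosphate into fructose 6-phosphate, had 451.1 ± 94.85 and 402.7 ± 49.4 TPM (log2 fold change −0.14, limma adjusted p = 0.556). Without DMSO replicate 4 all EB values of GPI lay below the DMSO values (−0.32, limma adjusted p = 0.048).

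Of the 3 PFKFB members, whose enzymes make and break down the phosphofructokinase activator fructose 2,6-bisphosphate, PFKFB2 and PFKFB3 fell with EB. PFKFB3 (hg38 chr10:6144934-6254644) mainly makes this activator. It had 33.5, 31.1, 40.6 and 17.4 TPM with DMSO and 12.9, 20.1, 10.2 and 22.6 with EB. The EB libraries lay below DMSO replicates 1 to 3 and overlapped replicate 4. The log2 fold change was −0.86 (standard error 0.30, limma adjusted p = 0.0418), and −1.10 without DMSO replicate 4 (limma adjusted p = 0.00751). PFKFB2, a family member of heart and other tissues, had 4.74, 4.40, 4.54 and 2.23 TPM with DMSO and 2.78, 2.11, 1.93 and 1.81 with EB. Its log2 fold change was −0.63 (standard error 0.20, limma adjusted p = 0.0299). PFKFB4 had 8.57 ± 3.18 TPM (SD, n = 4) with DMSO and 5.96 ± 1.51 with EB and did not pass (−0.41, limma adjusted p = 0.274), but without DMSO replicate 4 it was at −0.70 (limma adjusted p = 0.00902). After detrending, neither PFKFB2 (−0.27, limma adjusted p = 0.323) nor PFKFB3 (−0.68, limma adjusted p = 0.0744) was past 0.05. The call of PFKFB3 was also lost without any one of DMSO replicates 1, 2 and 3 and EB replicates 1 and 3, with the smaller pseudocount, with no filter and with a replicate block, 9 of 17 alternatives in all (limma adjusted p up to 0.114). That of PFKFB2 was also lost without any one of DMSO replicates 1, 2 and 3 and EB replicates 2, 3 and 4 and under quantile normalization, 8 of 16 alternatives in all. TIGAR, another enzyme that breaks this activator down, is no member and was named after its values were seen. It rose from 13.5 ± 0.828 to 20.5 ± 0.379 TPM (SD, n = 4; 0.57, limma adjusted p = 0.00311) and was at 0.96 after detrending (limma adjusted p = 0.000333).

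Phosphofructokinase itself is a tetramer of liver (PFKL), muscle (PFKM) and platelet (PFKP) subunits. PFKL had 300.1, 289.5, 274.5 and 152.8 TPM with DMSO and 215.3, 208.8, 188.6 and 158.5 with EB, a log2 fold change of −0.36 (limma adjusted p = 0.216). Without DMSO replicate 4, whose value was below all EB values, it was −0.59 (limma adjusted p = 0.00512). PFKP was at 277.5 ± 51.5 TPM (SD, n = 4) with DMSO and 322.0 ± 26.1 with EB (0.23, limma adjusted p = 0.266). PFKM was at 50.1 ± 13.6 and 45.5 ± 4.89 TPM, and without DMSO replicate 4 its EB libraries lay below (−0.32, limma adjusted p = 0.0407). None of the 3 passed the test with all libraries, but the ratios of PFKP to PFKL and of PFKL to PFKM did not overlap between the groups, as given below with the other paralogues.

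From aldolase to pyruvate kinase, ALDOA alone of 9 tested genes passed. ALDOA (chr16:30064164-30070457) is the main aldolase of glycolysis. Its TPM were 975.3, 1031, 958.0 and 710.0 with DMSO and 1378, 1273, 1479 and 1321 with EB. Every EB library lay above every DMSO library, which 16.6% of all genes tested showed. The log2 fold change was 0.58 (standard error 0.14, limma adjusted p = 0.0110; exact two-sided permutation test, p = 0.0286, the smallest that 4 against 4 libraries allow). It was 0.46 without DMSO replicate 4 (limma adjusted p = 0.0043) and 0.29 after detrending (limma adjusted p = 0.119). PKM, the pyruvate kinase of most cells and tumours, also had no overlap, with 823.2 to 1200 TPM with DMSO and 1295 to 1402 with EB, but did not pass the adjusted test (0.34, limma adjusted p = 0.0874). The table gives PKM as 1 gene, so its M1 and M2 splice forms cannot be told apart.

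ENO1, the ubiquitous enolase, had 2874, 2670, 2528 and 1716 TPM with DMSO and 3736, 3322, 3456 and 2804 with EB (0.46, limma adjusted p = 0.0618). The lowest EB library lay within the range of DMSO. TPI1, the triosephosphate isomerase, was at 2235 ± 444 and 2830 ± 241 TPM (SD, n = 4; 0.36, limma adjusted p = 0.112). Its detrended value was −0.01. For GAPDH, often used as a reference gene, the TPM were 8100, 8617, 8015 and 6353 with DMSO and 8414, 8128, 8021 and 8580 with EB. Its log2 fold change was 0.10 (95% interval −0.18 to 0.39, limma adjusted p = 0.553), 0.01 without DMSO replicate 4, −0.08 without the mitochondrial genes and −0.28 after detrending. PGK1, the ATP-making phosphoglycerate kinase, was at 152.5 ± 39.95 and 162.8 ± 28.4 TPM, and PGAM1, the phosphoglycerate mutase, at 550.1 ± 88.1 and 517.7 ± 64.1. The less abundant paralogues of this stretch, ALDOC and ENO2, known from brain, stood at 17.2 ± 7.55 and 56.5 ± 19.5 TPM with DMSO and at 12.9 ± 2.24 and 41.8 ± 8.24 with EB. Neither passed with all libraries, and both did without DMSO replicate 4 (−0.65 for ALDOC, limma adjusted p = 0.00953, and −0.64 for ENO2, limma adjusted p = 0.0157). GAPDH, ENO1, TPI1, PGK1, PGAM1, ALDOA, PKM and LDHA have processed pseudogenes of near-identical sequence, and how the authors assigned reads shared with them is not given in the sources used here.

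Among the genes that set the fate of pyruvate, PDK1 and PDK2 fell and LDHB and SLC16A3 rose. PDK2 (chr17:50094737-50112152) is a kinase that inactivates pyruvate dehydrogenase. It had 13.9, 15.5, 13.5 and 13.4 TPM with DMSO and 6.96, 7.98, 6.79 and 8.28 with EB. The groups did not overlap, and in TPM as deposited DMSO replicate 4 was like the other DMSO libraries. The log2 fold change was −0.83 (standard error 0.12, limma adjusted p = 0.000869; exact permutation test, p = 0.0286). It stayed between −1.02 and −0.58 over the 17 alternatives, with a limma adjusted p of at most 0.00695. PDK1, the family member best known as a hypoxia target, had 4.54, 5.38, 5.34 and 2.57 TPM with DMSO and 2.01, 3.49, 0.973 and 1.33 with EB. It was lower with EB by limma (−0.92, adjusted p = 0.0233), but DMSO replicate 4 lay within the EB range. The call was lost without any one of DMSO replicates 1, 2 and 3 and EB replicates 3 and 4 (limma adjusted p up to 0.067), with no filter and after detrending. Its transcript, at 14072 nucleotides, is the longest among the members, and after detrending the value was −0.48 (limma adjusted p = 0.179). PDK3 had 14.3 ± 1.28 and 12.4 ± 1.10 TPM (SD, n = 4) and did not pass (−0.20, limma adjusted p = 0.222). After detrending it was at −0.47 (limma adjusted p = 0.0285).

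Lactate dehydrogenase mRNA was almost wholly that of the A form, whose enzyme favours lactate production. LDHA had 751.5, 596.9, 468.0 and 459.8 TPM with DMSO and 396.5, 491.0, 577.9 and 448.4 with EB, overlapping throughout (−0.23, 95% interval −0.65 to 0.19, limma adjusted p = 0.343). LDHB, the form that favours lactate use, was low, with 3.59, 5.74, 3.83 and 5.72 TPM with DMSO. It rose to 7.23, 8.16, 9.73 and 6.19 TPM with EB, all above the DMSO values (0.63, limma adjusted p = 0.0206). The call was lost without DMSO replicate 1, without DMSO replicate 3, without EB replicate 3, after removal of the mitochondrial genes and after detrending (0.27, limma adjusted p = 0.256). LDHA still made up 98.2% to 98.6% of the LDHA and LDHB TPM with EB. SLC16A3, the transporter that exports lactate from glycolytic cells, had 74.8, 82.5, 66.3 and 46.0 TPM with DMSO and 129.4, 80.1, 101.7 and 92.1 with EB. One EB library lay within the DMSO range. The log2 fold change of 0.58 (standard error 0.21) had a limma adjusted p of 0.0467, and without DMSO replicate 4 it was 0.41 (limma adjusted p = 0.0658). The call was lost under 9 of 17 alternatives, among them leaving out DMSO replicate 1, 3 or 4 or EB replicate 1, 3 or 4 (limma adjusted p up to 0.124). SLC16A1, the more widely used lactate transporter, was at 49.6 ± 8.92 and 49.1 ± 7.71 TPM (−0.01, 95% interval −0.40 to 0.38).

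HIF1A, the alpha subunit that gives the hypoxia response its name, had the largest absolute log2 fold change of the members with all libraries and a pseudocount of 1. PDK1 was larger with a pseudocount of 0.1 (−1.25 against −1.14) and without DMSO replicate 4 (−1.113 against −1.109). ADM was larger under quantile normalization (1.202 against −1.196) and median-ratio scaling (1.022 against −1.010), and slightly so without EB replicate 4. HIF1A spans chr14:61695513-61748259 of hg38. Its TPM were 97.8, 106.2, 109.4 and 108.6 with DMSO and 50.2, 61.9, 38.6 and 43.7 with EB. All EB libraries lay below all DMSO libraries, which 20.3% of all genes tested showed. In TPM as deposited DMSO replicate 4 did not stand apart for HIF1A, though it was the lowest DMSO library for 77.0% of all genes tested. The mean of HIF1A fell from 105.5 ± 5.30 to 48.6 ± 10.1 TPM (SD, n = 4), a log2 fold change of −1.12 (standard error 0.15, 95% interval −1.47 to −0.78, limma adjusted p = 0.000719; exact permutation test, p = 0.0286). Over the alternatives it lay between −1.31 and −0.997, with a limma adjusted p of at most 0.00349. EPAS1, which encodes HIF-2α, had 21.2, 21.1, 24.8 and 13.25 TPM with DMSO and 20.8, 25.9, 17.7 and 18 with EB, a log2 fold change of 0.05 (95% interval −0.40 to 0.50). ARNT, the shared beta subunit, was at 23.0 ± 4.39 and 16.8 ± 3.83 TPM and did not pass (−0.44, limma adjusted p = 0.101), though it did without DMSO replicate 4 (−0.55, limma adjusted p = 0.0394). EGLN1, the main hydroxylase that marks the alpha subunits for degradation, was at 16.3 ± 3.76 and 17.01 ± 2.05 TPM (0.08, 95% interval −0.32 to 0.49).

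Of the 6 hypoxia targets tested, 1 passed. ANKRD37, a small ankyrin repeat gene, had 2.20, 4, 2.36 and 1.54 TPM with DMSO and 4.85, 3.49, 3.76 and 5.40 with EB. It was higher with EB by limma (0.64, adjusted p = 0.0356), with overlap of the groups, and the call was lost without DMSO replicate 4 (0.50, limma adjusted p = 0.0579) and after detrending (0.16, limma adjusted p = 0.616). It was lost under 9 of 16 alternatives, among them leaving out DMSO replicate 1 or 3 or EB replicate 1, 3 or 4. ADM, which encodes the vasodilator adrenomedullin, had 6.03, 7.17, 5.18 and 1.265 TPM with DMSO and 12.3, 10.1, 8.75 and 5.87 with EB. Its log2 fold change of 0.91 had the largest standard error but one among the members (0.38) and did not pass (limma adjusted p = 0.0796), and without DMSO replicate 4, the lowest library, it was 0.49. VEGFA, the main angiogenic factor, was at 5.17 ± 0.773 and 5.99 ± 2.08 TPM (SD, n = 4; 0.14, 95% interval −0.32 to 0.60). NDRG1, a growth-restraining gene often used as a marker of hypoxia, was at 11.9 ± 4.09 and 15.3 ± 1.62 TPM (0.38, limma adjusted p = 0.199).

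The mitophagy receptors BNIP3 and BNIP3L did not pass the test over all libraries. BNIP3L had 28.9, 29.6, 26.6 and 11.3 TPM with DMSO and 17.4, 14.2, 14.7 and 15.9 with EB (−0.52, limma adjusted p = 0.152). All EB values lay below DMSO replicates 1 to 3 and above DMSO replicate 4, and without that library the log2 fold change was −0.83 (limma adjusted p = 0.000487). BNIP3 was scarce in both groups, at 1.65 ± 0.535 and 1.19 ± 0.0981 TPM (−0.25, limma adjusted p = 0.232). Without DMSO replicate 4 all its EB values lay below (−0.38, limma adjusted p = 0.0195).

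Since several of these directions changed with the scaling between libraries, paralogues were also compared within each library, where scaling cancels apart from the pseudocount. Of 14 pairs, 12 had both genes tested. In 5 pairs the EB and DMSO libraries did not overlap in the log2 ratio, and each reached the smallest p of the exact two-sided permutation test (0.0286, adjusted p = 0.0686 over the 12 pairs). None was past 0.05 after adjustment. Without DMSO replicate 4, these 5 pairs and the pairs ALDOA to ALDOC and BNIP3 to BNIP3L had an adjusted p of 0.049 in the exact permutation test. This did not hold whichever library was left out. The adjusted p of that test then went up to 0.1143 for each of the 5 pairs, 0.1714 for ALDOA to ALDOC and 0.5486 for BNIP3 to BNIP3L. The ratio of PFKP to PFKL was 0.15 ± 0.19 with DMSO and 0.74 ± 0.10 with EB (log2 of TPM + 1, SD, n = 4). PFKP accordingly made up 47.7%, 45.5%, 46.7% and 52.9% of the phosphofructokinase TPM with DMSO and 55.6%, 57.7%, 57.7% and 59.3% with EB. The ratio of PFKL to PFKM went from 2.32 ± 0.012 to 2.06 ± 0.097. ENO1 to ENO2 went from 5.46 ± 0.31 to 6.29 ± 0.17, and LDHA to LDHB from 6.63 ± 0.53 to 5.765 ± 0.15. With all libraries HIF1A to EPAS1 showed the largest difference, from 2.37 ± 0.39 to 1.19 ± 0.07. DMSO replicate 4 had the highest ratio, 2.94, against 2.10 to 2.28 in the other DMSO libraries. Without it the difference was −0.98, smaller than for ALDOA to ALDOC (1.11) and LDHA to LDHB (−1.05). HIF1A made up 81.5% to 89.1% of the TPM of both alpha subunits with DMSO and 68.6% to 70.8% with EB. All 5 differences had the same direction after detrending. LDHA to LDHB then no longer reached the smallest p (exact permutation test, p = 0.0571), while the rest did (p = 0.0286). The ratio of SLC16A1 to SLC16A3 went from −0.42 ± 0.12 to −1.02 ± 0.33 with overlap (exact permutation test, p = 0.0571).

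**Figure D3:**
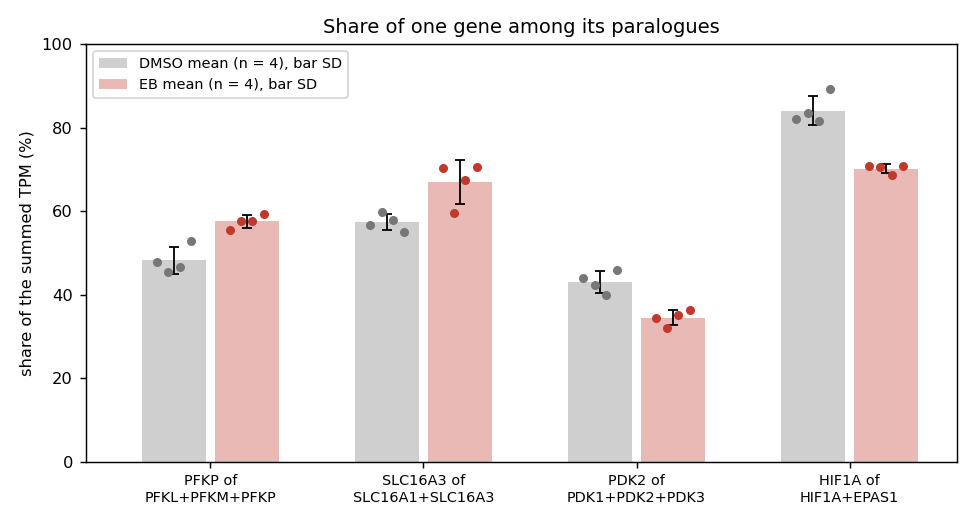
Share (%) of the summed TPM of a set of paralogues that 1 of them takes in each library, with bars for the mean of 4 DMSO (grey) and 4 EB (red) libraries and error bars for the SD. The EB points of PFKP lie above and those of PDK2 and HIF1A below all DMSO points, while 1 EB point of SLC16A3 lies within the DMSO range.

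Other genes of the same pathways were read from the same fit by lists compiled by hand. Of 86 such genes, 60 were tested, and 12 were higher and 17 lower with EB at a limma adjusted p under 0.05. This is 48.3% of those tested, against 40.3% of all genes tested, of which 15.2% were higher and 25.1% lower. On the list of other sugar transport and glycolysis genes, 13 of 24 were tested, with 3 higher and 4 lower. The transporters SLC2A10 and SLC2A12 fell from 6.43 ± 0.880 and 8.74 ± 1.34 TPM (SD, n = 4) to 2.33 ± 1.04 and 4.21 ± 1.38 (log2 fold changes −1.20 and −0.93), and SLC2A6 fell by 0.77 on the log2 scale. For SLC2A6 the groups overlapped, with 29.1 TPM in DMSO replicate 4 against 25.3 to 34.5 with EB. PGP, a phosphatase that clears side products of glycolysis, rose from 31.7 ± 6.10 to 64.4 ± 6.87 TPM (1.02, limma adjusted p = 0.00162). On the list of other genes of pyruvate and lactate fate, 14 of 20 were tested, with 4 higher and 5 lower. PDP1, a phosphatase that opposes the PDK enzymes, fell from 3.01 ± 0.332 to 1.003 ± 0.247 TPM (−1.01, limma adjusted p = 0.000564). PC, the pyruvate carboxylase, and LDHD, a mitochondrial D-lactate dehydrogenase, fell by 0.95 and 0.93 on the log2 scale. For PC the groups overlapped, with 9.86 TPM in DMSO replicate 4 against 5.26 to 10.5 with EB. PCK2, the mitochondrial enzyme that makes phosphoenolpyruvate, rose from 34.9 ± 10.8 to 81.5 ± 14.7 TPM (1.24, limma adjusted p = 0.00422).

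On the list of other oxygen sensing genes, 10 of 12 were tested, with 2 higher and 4 lower. EP300, a coactivator of hypoxia-inducible factors and many others, fell from 30.6 ± 4.73 to 8.78 ± 3.02 TPM (−1.73, limma adjusted p = 0.000471), and the related CREBBP from 26.4 ± 12.7 to 9.67 ± 1.82 (−1.23, limma adjusted p = 0.0183). For CREBBP the groups overlapped, with 10.7 TPM in DMSO replicate 4 against 7.41 to 11.8 with EB. VHL, the ubiquitin ligase subunit that recognises hydroxylated alpha subunits, fell from 20.7 ± 4.97 to 9.01 ± 2.004 TPM (−1.11, limma adjusted p = 0.0036), and ELOC, its partner, rose by 0.65 on the log2 scale. EP300 and CREBBP have transcripts of 8779 and 10790 nucleotides, and after detrending they were at −1.34 and −0.81, both still past 0.05, while ELOC was at 0.43 (limma adjusted p = 0.054). On the list of other hypoxia targets, 23 of 30 were tested, with 3 higher and 4 lower. P4HA2, a collagen prolyl hydroxylase, rose from 20.6 ± 5.07 to 40.8 ± 7.03 TPM (0.97, limma adjusted p = 0.00607). WSB1, a ubiquitin ligase subunit, fell from 37.6 ± 8.99 to 17.7 ± 0.901 TPM (−1.02, limma adjusted p = 0.00221), ZNF395 fell by 0.93 and MXI1, a MYC antagonist, by 0.82. The values of ZNF395 and MXI1 in DMSO replicate 4, 23.5 and 7.69 TPM, lay within the EB range. After detrending MXI1 was no longer past 0.05 (limma adjusted p = 0.0504). Both hypoxia lists held changes in either direction.

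The members' fold changes can be set against the length trend of all genes. ANKRD37 (784 nucleotides), LDHB (1303) and ALDOA (1640), which rose, have short transcripts, and PFKFB2 (7073) and PDK1 (14072), which fell, have long ones, so that their fold changes lie in the direction of the trend. HIF1A, at 3946 nucleotides, and PDK2, at 3364, were at −0.997 and −0.79 after detrending. The part of transcript length in these results was not tested beyond the detrended values given.

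**Figure D4:**
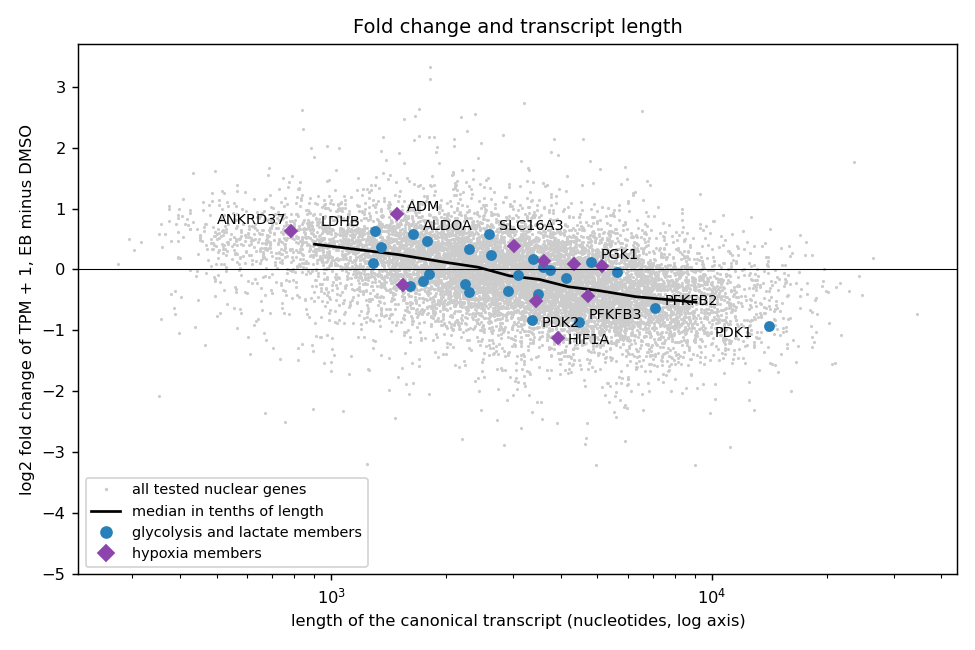
Log2 fold change of TPM + 1 (EB minus DMSO) of all 11685 tested nuclear genes (grey) against the length of the canonical transcript in nucleotides (log axis), with the median in 10 equal bins of length as a line, glycolysis and lactate members as blue circles and hypoxia members as purple diamonds. The line falls from 0.41 to −0.54, and HIF1A and PDK2 lie below it.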

How the data were processed

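RNA was measured by mRNA sequencing in 8 libraries of PANC-1 cells, 4 with DMSO and 4 with 10 μM EB for 24 h. The authors deposited 1 table of TPM for 20263 human genes. Their methods name CLC Genomics Workbench, HISAT2 and StringTie and both a mouse build (GrCM38) and hg38, and the labels' processing notes name GRCm38, mm10 and hg38. The identifiers in the table are human, and which tool and annotation gave the values is not stated. TPM keep no depth, so no counting interval can be given. Of the identifiers, 20148 were matched to a symbol. Columns C and H were read as DMSO and EB by their number, and 4 empty columns were not used.

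Genes with at least 1 TPM in at least 4 libraries (11725) were tested with limma 3.58.1 in R 4.3.3 on log2(TPM + 1), without covariates, with Benjamini-Hochberg adjustment over all of them and a threshold of 0.05. Fold changes are on the log2(TPM + 1) scale, which understates the change of low genes. The fit was tested on simulated data. Paralogue ratios within a library were compared by a two-sided exact permutation test over the 70 assignments of the libraries. Transcript length and GC content came from the canonical transcripts of GENCODE v44 on hg38, and their trend was removed per library with splines of 4 degrees of freedom. Promoters came from RefSeq (GRCh38.p14). The text names all 39 members and, from each other list, at most 4 called genes with the largest absolute log2 fold change. TIGAR was named in addition, outside this rule. The members, lists and tests were chosen with earlier results of these data known. Counts and members' fold changes were recomputed under 17 alternatives (16 for PFKFB2, PDK1, BNIP3 and ANKRD37, which a minimum of 5 TPM removes) and paralogue ratios under 10 of these (pseudocount, detrending and each library left out). Single genes of the other lists were recomputed without DMSO replicate 4 and detrended. The alternatives were no filter or a minimum of 5 TPM, a pseudocount of 0.1, median-ratio scaling, quantile normalization, removal of the mitochondrial genes, removal of the length and GC trend, limma with an intensity trend, a replicate block and each library left out in turn. Of the remaining marker lists, the mesenchymal sum was 5890 to 6421 TPM with DMSO and 6498 to 7780 with EB, the fibroblast sum 64.0 to 91.8 and 38.7 to 50.5, the endothelial sum at most 0.305 and the islet sum at most 0.0515.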

Additional observations from a re-analysis of the deposited data

Results flagged for a closer look

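DMSO replicate 4 stood apart from the other 3 DMSO libraries in 6 members by Dixon's test at the 95% level, out of 72 groups of 4 libraries examined, where chance gives about 5% of groups. The value in this library was 126.0 TPM for HK1, 308.8 TPM for GPI, 2.23 TPM for PFKFB2, 93.1 TPM for PGK1, 418.5 TPM for PGAM1 and 11.3 TPM for BNIP3L, each below the other DMSO libraries. The groups are not independent, since all come from the same 8 libraries.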

How the results depend on the processing

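The calls of HIF1A and PDK2 held under all 17 alternatives. Over the members' fold changes, 487 of 608 values under an alternative kept direction and side of the threshold, 48 lost the threshold, 36 gained it and 37 changed sign, none of the last past 0.05. The cause of these shifts was not tested. Depth is unknown and limits the low genes most. Among all genes, 3039 were higher under median-ratio scaling and 2792 under quantile normalization, against 1785, and 4840 were lower without the mitochondrial genes, against 2944. By the study's thresholds, the pseudocount of 0.1 gave 137 higher and 388 lower, quantile normalization 103 and 107, and removal of the mitochondrial genes 327 lower, against 63 and 181, with 148 to 298 lower when 1 library was left out.

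Of the glycolysis and lactate members, 7 were higher under median-ratio scaling and 0 after detrending. With 1 library left out 1 to 3 were higher and 1 to 10 lower. Lower were 2 without a filter, 2 at a minimum of 5 TPM, 2 after detrending, 7 under quantile normalization and 10 without the mitochondrial genes. The main fit tested 26 of these members, 10 hypoxia members and 60 other pathway genes. Of all genes, 25.9% were higher under median-ratio scaling, 23.8% under quantile normalization and 10.5% after detrending. The shares lower were 41.3% without the mitochondrial genes, 23.5% under quantile normalization and 20.1% after detrending. Of the hypoxia members, 0 were higher without a filter, 0 at a minimum of 5 TPM, 0 after detrending, 3 under median-ratio scaling and 3 under quantile normalization, and 4 were lower without the mitochondrial genes. With 1 library left out 0 to 1 were higher and 1 to 4 lower. Of the other pathway genes, 19 were higher under median-ratio scaling, 19 under quantile normalization, and 27 were lower without the mitochondrial genes, with 10 to 22 lower when 1 library was left out. By the study's thresholds 3 were lower with the pseudocount of 0.1, 0 after detrending and 1 to 2 with 1 library left out.

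Signs changed, none past 0.05, for SLC2A1 (−0.0041), HK1 (−0.14), GAPDH (−0.0845), PGK1 (−0.0619), EPAS1 (−0.13), EGLN1 (−0.0903) and VEGFA (−0.0184) without the mitochondrial genes. They changed for HK1 (−0.13), HK2 (0.27), PFKP (−0.0055), PGK1 (−0.0546), PDK3 (0.0107) and BNIP3 (0.0043) under quantile normalization, and for HK2 (0.0633), PFKM (0.0188), PGAM1 (0.0348) and SLC16A1 (0.10) under median-ratio scaling. After detrending they changed for HK2 (0.23), TPI1 (−0.0068), GAPDH (−0.28), SLC16A1 (0.0923) and the ratios HK1 to HK2 (−0.12), PDK1 to PDK2 (0.305) and BNIP3 to BNIP3L (−0.0909). With 1 library left out, values ran from −0.0685 to 0.28 for SLC2A1, −0.0711 to 0.0932 for HK1, −0.39 to 0.27 for HK2, −0.32 to 0.0043 for PFKM, −0.0974 to 0.23 for PGK1, −0.14 to 0.10 for SLC16A1, −0.13 to 0.16 for EPAS1, −0.0881 to 0.17 for EGLN1 and −0.0346 to 0.30 for VEGFA. The ratios then ran from −0.18 to 0.32 for HK1 to HK2, −0.29 to 0.0403 for PDK1 to PDK2, −0.30 to −0.22 for PFKL to PFKM, 0.54 to 0.68 for PFKP to PFKL, 0.73 to 1.11 for ALDOA to ALDOC, 0.70 to 0.94 for ENO1 to ENO2, −1.05 to −0.63 for LDHA to LDHB, −1.26 to −0.98 for HIF1A to EPAS1 and 0.13 to 0.45 for BNIP3 to BNIP3L.

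Deviations from the group means correlated at 0.183, 0.046, −0.088 and 0.284 between DMSO and EB libraries of the same number, 1 to 4. The highest correlation of each DMSO library with an EB library of another number was 0.117, 0.059, 0.126 and −0.015. These values do not settle whether the library numbers pair the samples. With the number as a replicate block, 5 glycolysis and lactate members were higher, against 3, and 3 lower, against 4, with PFKFB3 (limma adjusted p = 0.0677) and ANKRD37 (0.0539) no longer past 0.05. Of all genes, 2231 were then higher and 3525 lower.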
